A study of Homo sapiens with 21 samples.

Results

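The genes described here are 53 genes of DNA replication, chosen by name from the 60728 gene identifiers measured by RNA-Seq. They cover the origin recognition complex and licensing factors (9 genes), the replicative helicase with its loading partner and kinase (14), the polymerases and primase (9), the sliding clamp with its loader and the enzymes that finish lagging strands (8), the single-strand binding protein RPA (3), deoxynucleotide supply (4), fork protection (4) and chromatin assembly behind the fork (2). All 53 were found once in the deposited table and all 53 were among the 18584 genes that passed the filter on low values.

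The RNA came from SK-N-BE(2), an established human neuroblastoma cell line, 72 h after lentiviral transduction. Each of the 7 conditions had 3 libraries: Control, which received a non-silencing construct, 2 shRNAs labelled shARID1A.2 and shARID1A.4, 2 labelled shARID1B.2 and shARID1B.3, and 2 combinations labelled shARID1A/B.2.3 and shARID1A/B.4.2. A short hairpin RNA (shRNA) leads to the degradation of the transcript it matches. ARID1A and ARID1B are the mutually exclusive ARID subunits that define the BAF form of the SWI/SNF chromatin remodeller, so the design asks what the loss of either or of both does to the transcriptome. All groups, Control included, are the same cell line carrying a lentiviral construct, and nothing in the labels says how many cells of a culture carried it.

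Replication is licensed in G1, when the origin recognition complex (ORC) with CDC6 and CDT1 loads the ring of MCM2 to MCM7 onto DNA. In S phase the kinase CDC7 with DBF4 triggers the binding of CDC45 and GINS, which turns the ring into an active helicase, and polymerases alpha, delta and epsilon copy the strands with the sliding clamp PCNA. Many of these genes are transcribed under E2F and peak around the G1/S transition, so dividing tumour cells such as neuroblastoma cells express them strongly. In a bulk library, fewer cells in S phase and less RNA in each cell cannot be told apart.

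Both target genes were read first, because they check the labels. ARID1A was deposited at 6097, 6374 and 6463 in the Control libraries, 2169, 2159.9 and 2109 in shARID1A.2 and 2289, 2157 and 2284 in shARID1A.4. It was 1962, 1882 and 1916 in shARID1B.2 and 2507, 2479.9 and 2449.7 in shARID1B.3, and 5510.3, 5752 and 5714 in shARID1A/B.2.3 and 5589, 5352 and 5379 in shARID1A/B.4.2. ARID1A was therefore low in the libraries labelled shARID1A and shARID1B and close to Control in those labelled shARID1A/B. ARID1B was deposited at 5793, 5804 and 5791 in the Control libraries, 2252, 2248 and 2224 in shARID1A.2 and 3065, 3109.7 and 3126 in shARID1A.4. It was 5056, 4913 and 5043 in shARID1B.2 and 6182, 6038 and 6053 in shARID1B.3, and 2540.5, 2651 and 2607 in shARID1A/B.2.3 and 1886, 1881 and 1955 in shARID1A/B.4.2. ARID1B was low in the libraries labelled shARID1A and shARID1A/B and close to Control in those labelled shARID1B. The log2 fold changes, in the order in which the silenced conditions were introduced above, were -1.56, -1.49, -1.72, -1.35, -0.16 and -0.21 for ARID1A (SE 0.029 each) and -1.37, -0.90, -0.21, 0.07, -1.16 and -1.60 for ARID1B (SE 0.023 each). ARID1A was still called lower in both conditions labelled shARID1A/B. By their targets, the libraries labelled shARID1A had both transcripts low, those labelled shARID1B had ARID1A low, and those labelled shARID1A/B had ARID1B low. The labels are kept as written throughout, and each condition name below means the libraries so labelled.

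Library totals lay between 27954334 and 41077638 recovered reads, and the members from 242 reads (ORC1) to 22742 reads (MCM7) in a library. Values are scaled reads per gene, that is reads divided by 1 size factor per library. Fold changes are on the scale of log2(value + 1) and calls are at an adjusted p of 0.05 over all genes by limma. The libraries are described as biological triplicates without saying that they came from separate transductions, so the p-values measure the spread between these libraries, which may be technical in part. All 8 adrenergic neuroblastoma markers passed the filter, with a summed value of 167399 to 171716 in Control, 453385 to 470912 in shARID1A.4, 258042 to 263793 in shARID1A/B.2.3, 192036 to 212362 in shARID1B.3 and 115084 to 126558 in the other 3. Of 6 fibroblast or mesenchymal markers 5 passed, summed to 33304 to 33907 in Control, 26058 to 28690.3 in both conditions labelled shARID1B, 17953 to 18310.1 in shARID1A/B.2.3 and 9628 to 13615 in the other 3. Of 4 Schwann cell markers 3 passed (124.5 to 602.6 over all libraries) and of 3 blood markers 1 (57.3 to 427.3). These lists moved with the conditions and their part in the values below was not tested. Of these lists, PRRX1, SOX10, CD3E and LYZ were below the filter. Among those that passed, the Control means were 411 for PTPRC, 12929 for COL1A1, 10900 for LUM and 7872 for PDGFRB.

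Nearly all members fell in 5 of the 6 silenced conditions. In shARID1A.2, 51 members fell and 1 rose, against 38.2% and 37.9% of all genes tested. In shARID1A.4, 50 fell and 2 rose, against 36.6% and 37.0%. In shARID1A/B.2.3 the counts were 50 and 2, against 34.0% and 35.2%, and in shARID1A/B.4.2 they were 49 and 1, against 36.1% and 35.1%. In shARID1B.2, 47 fell and 3 rose, against 34.0% and 31.6%. The libraries labelled shARID1B.3 stood apart, with 25 members lower and 13 higher, against 32.0% and 31.9%.

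The choice of scaling moved these counts in part, because the median of all genes shifted with it. With libraries scaled to total reads, 44 members were lower and 3 higher in shARID1A.2 (all genes 30% and 47.3%), 40 and 4 in shARID1B.2 (24.9% and 42.5%) and 44 and 4 in shARID1A/B.4.2 (26% and 47.9%). With upper-quartile scaling shARID1B.3 had 20 members lower and 20 higher, so that its split had no main direction there.

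The sizes separated the conditions more than the counts did. The median log2 fold change over the 53 members was -0.86 in shARID1A.2, -0.96 in shARID1A.4, -0.53 in shARID1B.2, -0.09 in shARID1B.3, -1.01 in shARID1A/B.2.3 and -0.71 in shARID1A/B.4.2, while the median over all genes was 0.01 to 0.02 in each. A fall of at least 1 on the log2 scale was called for 23, 26, 4, 1, 29 and 16 members in that order, against 10.7%, 12.0%, 5.12%, 6.58%, 9.10% and 8.14% of all genes. No member rose by as much in any condition. The 6 contrasts share the Control libraries. In all, 44 members fell in each of the 5 conditions other than shARID1B.3, 22 of the 53 fell in all 6, and every member fell in at least 2. A rise in at least 1 condition was called for 18 members, against 69.6% of all genes, and 13 of the 18 rose in shARID1B.3. Each member was at its lowest in shARID1A/B.2.3 (22 members), shARID1A.4 (13), shARID1A.2 (10), shARID1A/B.4.2 (6), shARID1B.2 (1, POLD2) or shARID1B.3 (1, ORC5).

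**Figure D1:**
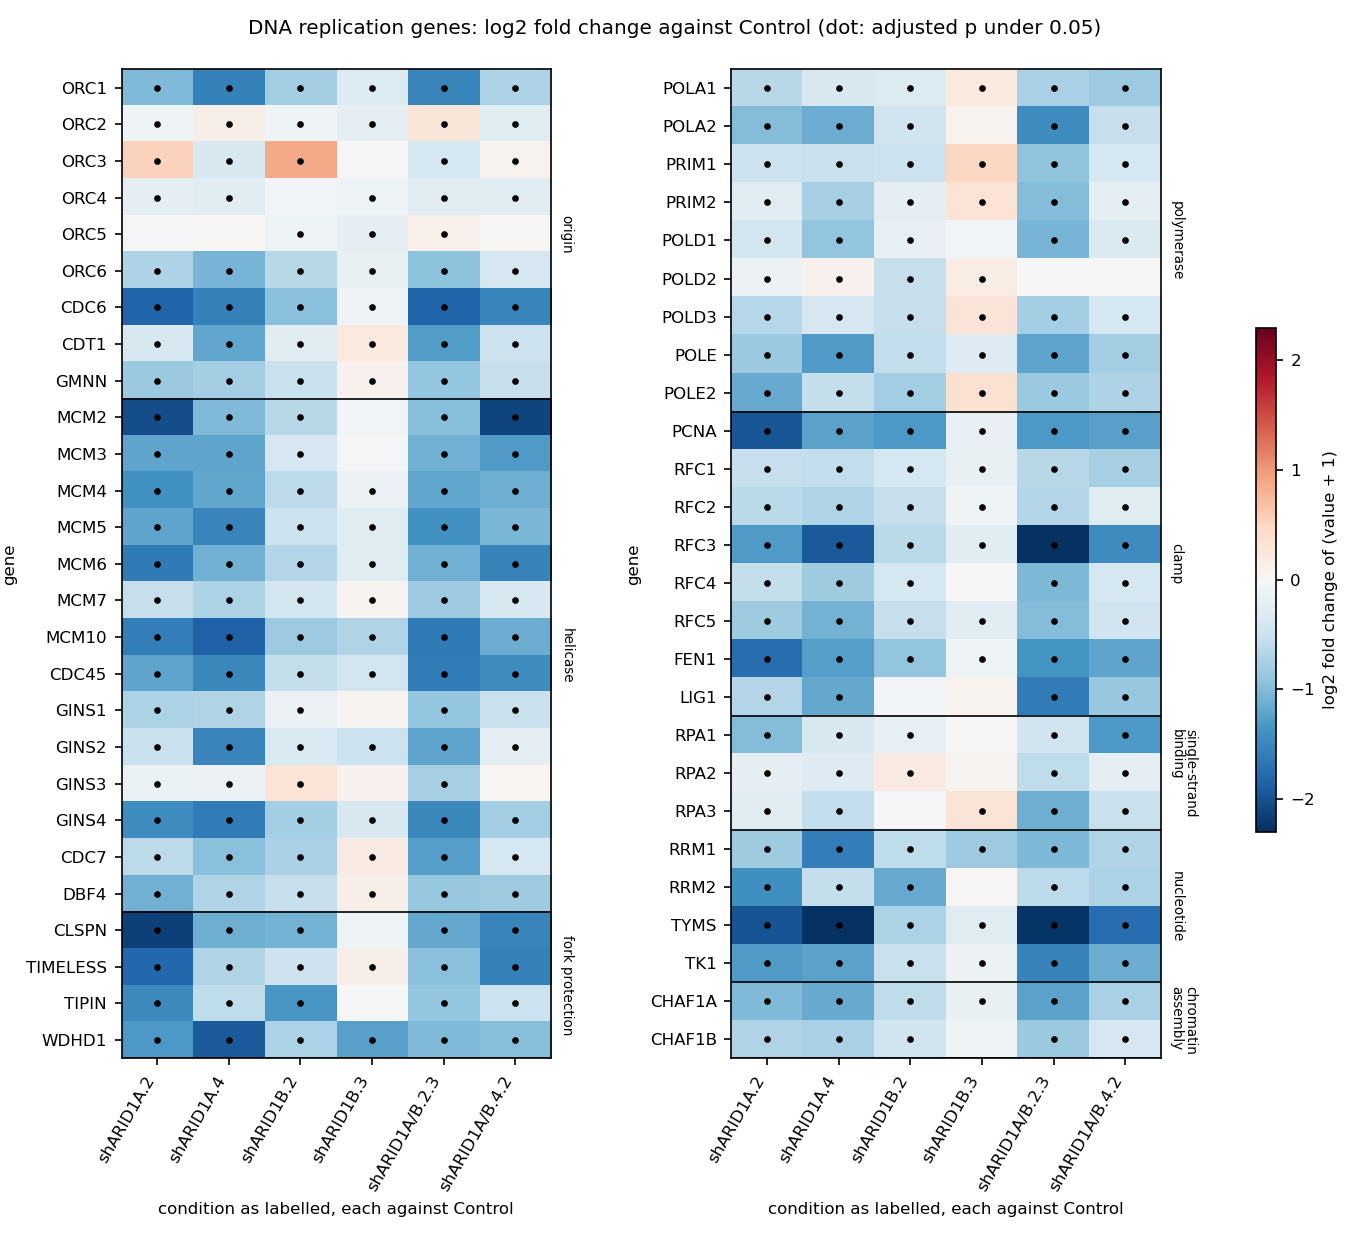
Log2 fold change of (value + 1) against Control for the 53 genes (rows, by subgroup) in the 6 silenced conditions (columns), where blue is lower, red is higher and a dot marks an adjusted p under 0.05. The columns shARID1A.2, shARID1A.4, shARID1A/B.2.3 and shARID1A/B.4.2 are mostly blue, shARID1B.2 is paler, and shARID1B.3 is near white with the polymerase rows slightly red.

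Since these genes moved together, the sequence before their start sites is shown for those that carry the comparison. RefSeq promoters (GRCh38.p14) matched 47 of the 53 members and were searched on both strands of the 250 bases before the start for E2F letters, which are TTTCCCGC, TTTGGCGC, TTTCGCGC or TTTGCCGC. At least 1 match lay before 16 of 47 members (34.0%), against 3.4% of the 27305 genes in the table. The sequences below are written on the gene's strand with the E2F letters, or their complement, in capitals, and stop at the first annotated base of the gene. MCM6 is shown for holding the most matches (4), PCNA, MCM3 and POLA1 as other members that hold a match, MCM10 and WDHD1 as the members with the deepest mean falls that hold no match and have a mostly untranscribed window, and ORC2 and ORC5 as members without a match that hardly fell. Members that fell deeply were thus found with and without the letters, since CDC6, MCM2, CLSPN and FEN1 held no match either.

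MCM6 (chr2:135876444-135876693, minus strand): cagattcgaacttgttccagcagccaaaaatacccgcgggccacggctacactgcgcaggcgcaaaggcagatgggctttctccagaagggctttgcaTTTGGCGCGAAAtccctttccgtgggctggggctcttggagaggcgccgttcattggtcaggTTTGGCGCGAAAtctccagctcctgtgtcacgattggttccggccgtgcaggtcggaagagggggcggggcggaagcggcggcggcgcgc
PCNA (chr20:5126627-5126872, minus strand): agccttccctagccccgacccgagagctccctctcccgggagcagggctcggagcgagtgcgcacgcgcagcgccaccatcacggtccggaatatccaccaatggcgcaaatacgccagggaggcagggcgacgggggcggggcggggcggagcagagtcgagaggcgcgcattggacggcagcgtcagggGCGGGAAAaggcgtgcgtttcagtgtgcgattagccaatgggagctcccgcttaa
MCM3 (chr6:52284882-52284992, minus strand): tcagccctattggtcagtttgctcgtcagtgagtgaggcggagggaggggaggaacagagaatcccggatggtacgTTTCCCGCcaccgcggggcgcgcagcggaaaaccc
POLA1 (chrX:24693668-24693917, plus strand): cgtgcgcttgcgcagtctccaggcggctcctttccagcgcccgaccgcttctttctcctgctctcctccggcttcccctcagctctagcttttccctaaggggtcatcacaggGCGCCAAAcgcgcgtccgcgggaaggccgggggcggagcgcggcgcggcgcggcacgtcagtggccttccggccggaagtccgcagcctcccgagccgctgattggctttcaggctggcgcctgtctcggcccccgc
MCM10 (chr10:13161308-13161553, plus strand): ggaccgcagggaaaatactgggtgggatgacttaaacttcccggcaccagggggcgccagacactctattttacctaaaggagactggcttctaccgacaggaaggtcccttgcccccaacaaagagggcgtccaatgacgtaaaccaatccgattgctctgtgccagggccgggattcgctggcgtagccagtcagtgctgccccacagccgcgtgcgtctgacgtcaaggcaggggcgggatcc
WDHD1 (chr14:55027106-55027349, minus strand): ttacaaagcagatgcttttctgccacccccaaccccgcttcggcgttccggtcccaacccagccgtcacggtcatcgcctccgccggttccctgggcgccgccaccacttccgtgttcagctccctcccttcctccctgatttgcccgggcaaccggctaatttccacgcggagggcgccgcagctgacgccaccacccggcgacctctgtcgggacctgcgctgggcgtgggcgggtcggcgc
ORC2 (chr2:200963681-200963910, minus strand): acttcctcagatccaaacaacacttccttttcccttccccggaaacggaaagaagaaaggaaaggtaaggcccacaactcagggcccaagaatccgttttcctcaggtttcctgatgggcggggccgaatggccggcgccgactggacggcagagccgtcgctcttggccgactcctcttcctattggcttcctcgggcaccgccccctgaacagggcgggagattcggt
ORC5 (chr7:104208048-104208263, minus strand): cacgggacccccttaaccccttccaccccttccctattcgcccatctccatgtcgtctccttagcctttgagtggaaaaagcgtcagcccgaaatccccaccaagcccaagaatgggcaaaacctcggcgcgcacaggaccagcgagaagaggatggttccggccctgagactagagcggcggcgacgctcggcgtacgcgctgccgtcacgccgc

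In MCM6 the matches form 2 copies of 1 stretch that starts 152 and 90 bases before the start site, each holding TTTGGCGC on the gene's strand and TTTCGCGC on the other with 4 shared bases. Counted from the RefSeq start, the match began 59 bases before PCNA, 174 before MCM3 and 137 before POLA1. For PCNA and MCM3 that start lies past the end of the printed stretch, so the match lies closer to that end. For members whose match lies next to or within annotated transcript, only the match with 10 bases on each side is given. RFC3 and TYMS are shown as the members with the deepest falls and POLE as the polymerase gene with the deepest mean fall, and ORC3 because it holds the same letters as RFC3 and TYMS but fell in shARID1A.4 and shARID1A/B.2.3 alone, and by less.

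RFC3 (chr13:33818084-33818111, plus strand): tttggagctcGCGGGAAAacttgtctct
TYMS (chr18:657604-657631, plus strand): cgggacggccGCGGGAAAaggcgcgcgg
POLE (chr12:132687343-132687370, minus strand): gggtgggagcGCGCCAAAtttctcccct
ORC3 (chr6:87590113-87590140, plus strand): gcgagggcgcGCGGGAAAtcccgagtgc

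The median of the members with the letters was the lower in shARID1A.4 and shARID1A/B.2.3, and the medians lay close in the other conditions. The median log2 fold change of the 16 members with a match and the 31 without was -0.86 and -0.82 in shARID1A.2, -1.16 and -0.76 in shARID1A.4, -0.49 and -0.53 in shARID1B.2, 0.01 and -0.09 in shARID1B.3, -1.22 and -0.97 in shARID1A/B.2.3 and -0.67 and -0.71 in shARID1A/B.4.2. The NF-Y letters CCAAT lay before 28 of the 47 members (59.6%), against 37.0% of the genes in the table. For the 28 members with CCAAT and the 19 without, the medians were -0.93 and -0.68 in shARID1A.2 and -0.73 and -0.50 in shARID1A/B.4.2. They were -1.08 and -0.91 in shARID1A.4, and -0.98 and -1.01 in shARID1A/B.2.3. In shARID1B.2 they were -0.53 and -0.465, and in shARID1B.3 -0.11 and -0.05. The splits by E2F and NF-Y letters were not tested. The CHR letters TTTGAA or TTCGAA lay before 2 members (4.26%), against 17.2%. These matches describe the letters in the window and no binding was measured.

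The medians of the subgroups differed in depth of fall. In each library the median over a subgroup of log2(value + 1) minus the Control mean was taken, and values are given as mean ± SD over the 3 libraries of a condition. The SD and any overlap thus refer to libraries and not to the spread between the genes of a subgroup. Differences between subgroups were not tested. In shARID1A.2 the order was fork protection at -1.63 ± 0.07, nucleotide supply at -1.36 ± 0.024, helicase at -1.19 ± 0.026, chromatin assembly at -0.85 ± 0.013, clamp at -0.75 ± 0.06, polymerase at -0.61 ± 0.037, origin at -0.37 ± 0.12 and single-strand binding at -0.24 ± 0.033. The library medians of the clamp and the polymerase subgroup did not overlap there, but their genes did. POLE2 of the polymerase subgroup was at -1.16, below the clamp median, and PCNA of the clamp at -1.96. Among the origin, helicase, polymerase, clamp and nucleotide subgroups, nucleotide supply was lowest in shARID1A.4 at -1.41 ± 0.049, followed by helicase at -1.14 ± 0.006 and clamp at -1.14 ± 0.013, whose libraries overlapped, then origin at -0.78 ± 0.047 and polymerase at -0.56 ± 0.03. In shARID1A/B.2.3 nucleotide supply was at -1.28 ± 0.068, clamp at -1.20 ± 0.053, helicase at -1.14 ± 0.056, polymerase at -0.95 ± 0.025 and origin at -0.89 ± 0.1. In shARID1A/B.4.2 the helicase was at -0.95 ± 0.046, nucleotide supply at -0.94 ± 0.042, clamp at -0.82 ± 0.03, polymerase at -0.43 ± 0.06 and origin at -0.39 ± 0.093, and the libraries of the first pair overlapped.

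By their means, 6 of the 8 subgroups lay closer to Control in shARID1B.2 than in any condition labelled shARID1A or shARID1A/B. The exceptions were the polymerase subgroup, which was lower than in shARID1A/B.4.2, and fork protection at -0.91 ± 0.048, which lay beside its value of -0.90 ± 0.008 in shARID1A.4. In shARID1B.2, nucleotide supply was at -0.65 ± 0.023, helicase at -0.55 ± 0.04, clamp at -0.52 ± 0.044, polymerase at -0.50 ± 0.043 and origin at -0.26 ± 0.078. In shARID1B.3 the polymerase subgroup was above Control in all 3 libraries, at 0.22 ± 0.019, while nucleotide supply was at -0.20 ± 0.033, clamp at -0.14 ± 0.016, origin at -0.12 ± 0.046 and helicase at -0.09 ± 0.021. Of the 9 polymerase genes, 6 rose there and 1 (POLE) fell, where 3 of 14 helicase genes rose and 7 fell and 0 of 8 clamp genes rose and 6 fell. Of all genes tested, 31.9% rose there and 32.0% fell.

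**Figure D2:**
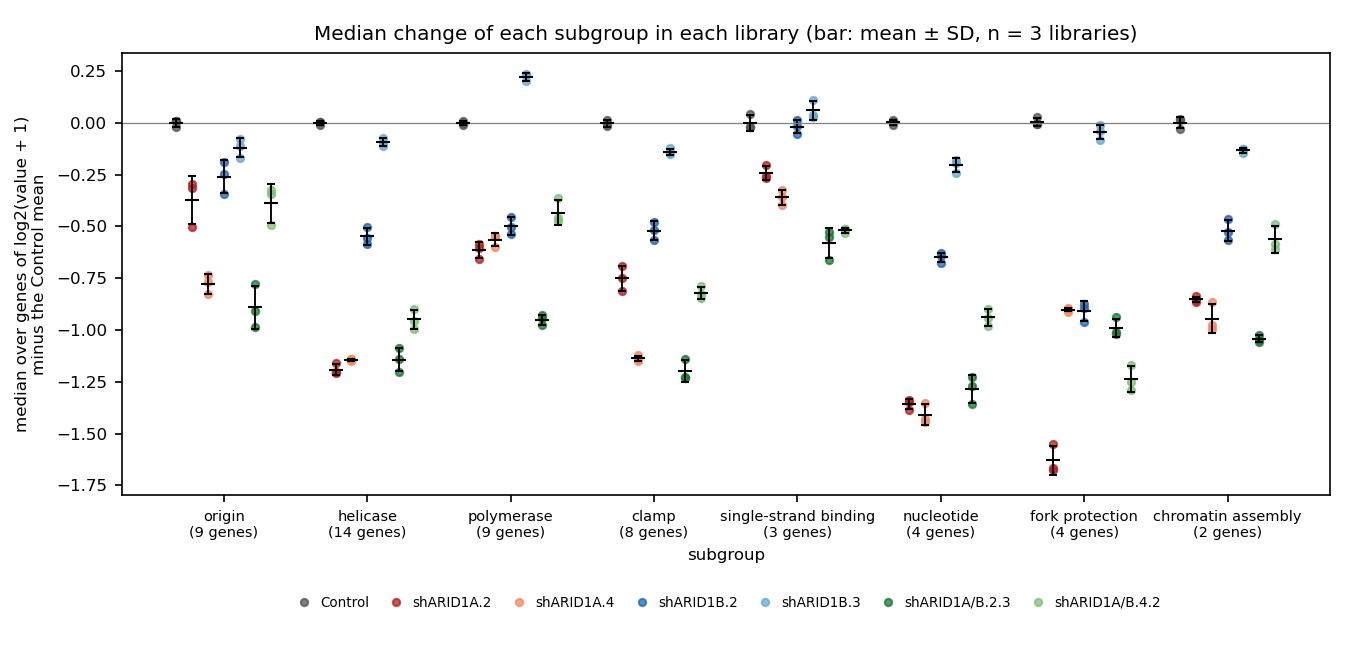
Median over the genes of a subgroup of log2(value + 1) minus the Control mean (vertical axis) in each of the 21 libraries, by subgroup (horizontal axis) and condition (colour), where points are libraries and bars are the mean ± SD of 3 libraries. The fork protection and nucleotide points reach lowest, and the polymerase points of shARID1B.3 lie above the zero line.

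The genes of the origin subgroup differed from each other in depth and direction of change. CDC6, the ATPase that loads the MCM ring together with ORC, had the deepest mean fall of the subgroup. CDC6 was deposited at 4156, 3977 and 4032 in the Control libraries, 1111, 1167 and 1127 in shARID1A.2 and 1328, 1388 and 1412 in shARID1A.4. It was 2143, 2085 and 1996 in shARID1B.2 and 3769, 3888 and 3749 in shARID1B.3, and 1209, 1066 and 1111 in shARID1A/B.2.3 and 1433, 1469 and 1419.9 in shARID1A/B.4.2. No silenced library other than those of shARID1B.3 came near the Control values, and the log2 fold changes were -1.84, -1.56, -0.97, -0.09, -1.85 and -1.49 in the order used above (SE 0.038). ORC1, the ORC subunit whose level follows the cell cycle in human cells, fell in all 6 conditions, from -1.55 in shARID1A.4 to -0.31 in shARID1B.3. ORC6 likewise fell in all 6, from -1.06 to -0.17.

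The core subunits ORC2 to ORC5 did not follow them. ORC3 was deposited at 2102, 2056 and 2100.3 in the Control libraries, 3056, 3017 and 2922 in shARID1A.2 and 1607, 1603 and 1657 in shARID1A.4. It was 3718, 3768 and 3913 in shARID1B.2 and 2027, 2188 and 2122 in shARID1B.3, and 1606, 1542 and 1589 in shARID1A/B.2.3 and 2216, 2242 and 2171 in shARID1A/B.4.2. ORC3 was thus higher than Control in shARID1A.2, shARID1B.2 and, by little, shARID1A/B.4.2, lower in shARID1A.4 and shARID1A/B.2.3, and overlapped Control in shARID1B.3. Its log2 fold changes were 0.52, -0.36, 0.86, 0.02, -0.40 and 0.08 (SE 0.03), the rise in shARID1B.2 was the largest of any member in any condition, and the adjusted p was 5.7e-18 there. ORC2 ranged from 2039 to 2183 in the Control libraries, 1971 to 1998 in shARID1A.2 and 2294 to 2336 in shARID1A.4. Its range was 1936 to 2018 in shARID1B.2, 1773 to 1839 in shARID1B.3, 2499.6 to 2619 in shARID1A/B.2.3 and 1709.5 to 1803 in shARID1A/B.4.2. ORC2 rose in shARID1A.4 (log2 0.13) and shARID1A/B.2.3 (0.27) and fell slightly in the other 4, to -0.28 at the lowest. The falls of ORC2 in shARID1A.2 and shARID1B.2 turned to positive values when libraries were scaled to total reads or to the upper quartile. ORC5 ranged from 1017 to 1104 in the Control libraries, 1030.1 to 1049.6 in shARID1A.2 and 1061 to 1133 in shARID1A.4. Its range was 967 to 993 in shARID1B.2, 898 to 958 in shARID1B.3, 1116 to 1181 in shARID1A/B.2.3 and 1069 to 1100.5 in shARID1A/B.4.2. ORC5 rose in shARID1A/B.2.3 (0.11) and fell in shARID1B.2 (-0.12) and shARID1B.3 (-0.21), the fall in shARID1B.2 turning positive on scaling to total reads. ORC4 lay between -0.27 and -0.07 throughout.

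CDT1, which brings the MCM ring to ORC, and GMNN (geminin), its inhibitor, both fell in 5 conditions and rose in shARID1B.3. CDT1 ranged from 1305 to 1377 in the Control libraries, 936 to 1084 in shARID1A.2 and 554 to 629 in shARID1A.4. Its range was 1048 to 1167 in shARID1B.2, 1492 to 1635 in shARID1B.3, 529 to 569 in shARID1A/B.2.3 and 847 to 1005 in shARID1A/B.4.2. Its log2 fold changes were -0.37, -1.19, -0.26, 0.23, -1.28 and -0.50 (SE 0.064), so that the falls in shARID1A.4 and shARID1A/B.2.3 were far deeper than those in the other conditions. GMNN ranged from 2362 to 2423 in the Control libraries, 1305 to 1340.0 in shARID1A.2 and 1352 to 1442 in shARID1A.4. Its range was 1667 to 1691 in shARID1B.2, 2449.9 to 2669 in shARID1B.3, 1213 to 1398 in shARID1A/B.2.3 and 1588 to 1747 in shARID1A/B.4.2. GMNN changed more evenly, with -0.86, -0.78, -0.51, 0.10, -0.89 and -0.54 (SE 0.043). Its rise in shARID1B.3 lost its call without any 1 of the Control libraries or without shARID1B.3 replicate 2 or 3 (adjusted p = 0.0608 to 0.183), with the replicate block (0.0524) and without the filter (0.0831). The fall of CDT1 in shARID1B.2 lost its call under scaling to total reads (adjusted p = 0.114) or the upper quartile (0.0582).

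The 6 subunits of the MCM ring all fell in 5 conditions, but not to the same extent. MCM2 was deposited at 9121, 9035 and 9169.5 in the Control libraries, 2164, 2182 and 2264 in shARID1A.2 and 4614, 4545 and 4326 in shARID1A.4. It was 5732, 5846 and 5883 in shARID1B.2 and 8820.2, 8617 and 8890.4 in shARID1B.3, and 4758, 4546 and 4615 in shARID1A/B.2.3 and 2095, 2119 and 2147 in shARID1A/B.4.2. MCM2 was lowest in shARID1A.2 and shARID1A/B.4.2, and its libraries in shARID1A.4 and shARID1A/B.2.3 lay well above those. Its log2 fold changes were -2.05, -1.02, -0.65, -0.05, -0.97 and -2.10 (SE 0.026), and in shARID1B.3 the adjusted p was 0.0705. MCM6 was deposited at 8573, 8362 and 8542 in the Control libraries, 2749, 2752 and 2777 in shARID1A.2 and 4024, 3923 and 3965 in shARID1A.4. It was 5358, 5296 and 5262 in shARID1B.2 and 6966, 6987 and 7149.6 in shARID1B.3, and 4097, 3789 and 3933 in shARID1A/B.2.3 and 2979, 2984 and 2824 in shARID1A/B.4.2. MCM6 shared the order of MCM2 within each label, with -1.62, -1.10, -0.68, -0.27, -1.11 and -1.54 (SE 0.026).

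The other 4 subunits did not share that order in every label. MCM3 ranged from 14273 to 14336 in the Control libraries, 6114 to 6309.8 in shARID1A.2 and 6182 to 6255 in shARID1A.4. Its range was 10849.6 to 10999 in shARID1B.2, 13678 to 14119.6 in shARID1B.3, 6553 to 6751 in shARID1A/B.2.3 and 5669 to 5981 in shARID1A/B.4.2. Its log2 fold change ran from -1.30 in shARID1A/B.4.2 to -0.04 in shARID1B.3 (adjusted p = 0.0643). MCM4 ranged from 11815 to 12125 in the Control libraries, 4534 to 4636 in shARID1A.2 and 5069 to 5287 in shARID1A.4. Its range was 7883 to 7955 in shARID1B.2, 10841 to 11125 in shARID1B.3, 5082 to 5394 in shARID1A/B.2.3 and 5417 to 5672 in shARID1A/B.4.2. MCM4 was lowest in shARID1A.2, at -1.39, and called lower in all 6. MCM5 ranged from 6429 to 6558 in the Control libraries, 2777 to 2854 in shARID1A.2 and 2218 to 2347 in shARID1A.4. Its range was 4532 to 4653 in shARID1B.2, 5239.6 to 5393 in shARID1B.3, 2466 to 2532 in shARID1A/B.2.3 and 3023 to 3248 in shARID1A/B.4.2. MCM5, in contrast to MCM2 and MCM6, was lowest in shARID1A.4 (-1.52) and shARID1A/B.2.3 (-1.38). MCM7 ranged from 18276 to 18467 in the Control libraries, 12527 to 12859 in shARID1A.2 and 10883 to 11230.4 in shARID1A.4. Its range was 13636 to 13805 in shARID1B.2, 19099 to 19637 in shARID1B.3, 10031 to 10401 in shARID1A/B.2.3 and 13873 to 14504 in shARID1A/B.4.2. MCM7 had the smallest fall of the ring in the 4 conditions labelled shARID1A or shARID1A/B, from -0.84 in shARID1A/B.2.3 to -0.38 in shARID1A/B.4.2. It was the only ring subunit to rise in shARID1B.3, by 0.07 (SE 0.02, adjusted p = 0.00505).

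Of the factors that turn the ring into a working helicase, MCM10, which helps the helicase to start, fell in all 6 conditions. MCM10 ranged from 3627 to 3668 in the Control libraries, 1164 to 1283 in shARID1A.2 and 973 to 1051 in shARID1A.4. Its range was 1963 to 2124 in shARID1B.2, 2195 to 2303 in shARID1B.3, 1133 to 1212 in shARID1A/B.2.3 and 1609.6 to 1709.5 in shARID1A/B.4.2. With -1.59, -1.85, -0.83, -0.70, -1.63 and -1.14 (SE 0.04) it had the deepest mean fall of the helicase subgroup. CDC45, the partner of the ring in the active helicase, also fell in all 6, from -1.61 to -0.44. The GINS subunits, which form a complex of 4, differed. GINS4 fell in all 6 from -1.62 to -0.36, GINS2 in all 6 from -1.51 to -0.23, and GINS1 in 5 down to -0.90. GINS3 ranged from 969 to 1074 in the Control libraries, 882 to 926 in shARID1A.2 and 892 to 962 in shARID1A.4. Its range was 1218 to 1276 in shARID1B.2, 1058 to 1114 in shARID1B.3, 576 to 616 in shARID1A/B.2.3 and 976 to 1103 in shARID1A/B.4.2. GINS3 fell clearly in shARID1A/B.2.3 alone (-0.76), rose in shARID1B.2 (0.31, SE 0.046) and fell by little in shARID1A.2 (-0.16, a positive value on scaling to total reads or the upper quartile) and shARID1A.4 (-0.13).

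CDC7 and DBF4, the kinase and its activating subunit, fell in the same 5 conditions and rose in shARID1B.3. CDC7 ranged from 1872 to 1912 in the Control libraries, 1204 to 1308 in shARID1A.2 and 938 to 1021 in shARID1A.4. Its range was 1082 to 1211 in shARID1B.2, 2106 to 2204 in shARID1B.3, 752 to 809 in shARID1A/B.2.3 and 1373 to 1478 in shARID1A/B.4.2. CDC7 thus fell deepest in shARID1A/B.2.3, and its libraries in shARID1B.3 all lay above Control. DBF4 ranged from 3070.1 to 3172 in the Control libraries, 1404 to 1513 in shARID1A.2 and 1847 to 1972 in shARID1A.4. Its range was 2068 to 2267 in shARID1B.2, 3419 to 3449 in shARID1B.3, 1676 to 1732 in shARID1A/B.2.3 and 1742 to 1793 in shARID1A/B.4.2. The log2 fold changes of CDC7 were -0.61, -0.96, -0.74, 0.20, -1.27 and -0.40 (SE 0.045) and those of DBF4 -1.10, -0.69, -0.54, 0.14, -0.87 and -0.82 (SE 0.034). DBF4 had its lowest values in shARID1A.2 instead.

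The polymerase subgroup fell less than the helicase in the conditions labelled shARID1A or shARID1A/B. POLE, the catalytic subunit of the leading-strand polymerase epsilon, had its deepest mean fall and was the only polymerase gene lower in all 6 conditions. POLE ranged from 6499 to 6722 in the Control libraries, 3473 to 3742 in shARID1A.2 and 2543 to 2866 in shARID1A.4. Its range was 4380.4 to 4511 in shARID1B.2, 5296 to 5473 in shARID1B.3, 2739 to 2888 in shARID1A/B.2.3 and 3696 to 3999.9 in shARID1A/B.4.2. The lowest POLE libraries were those of shARID1A.4 and shARID1A/B.2.3, which overlapped. POLE2 ranged from 886 to 930.2 in the Control libraries, 394 to 415 in shARID1A.2 and 621 to 622 in shARID1A.4. Its range was 498 to 544 in shARID1B.2, 1102 to 1197 in shARID1B.3, 477 to 528 in shARID1A/B.2.3 and 524 to 572 in shARID1A/B.4.2. POLE2, the second subunit of polymerase epsilon, instead exceeded every Control library in shARID1B.3, at 0.35 (SE 0.049, adjusted p = 7.87e-07), and was lowest in shARID1A.2 at -1.16.

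Primase and polymerase alpha, which start each new strand, showed the same rise in shARID1B.3. PRIM1 was deposited at 1465, 1489.7 and 1509 in the Control libraries, 1033, 1071 and 1060.2 in shARID1A.2 and 1043, 982 and 1105 in shARID1A.4. It was 1111, 999 and 1049 in shARID1B.2 and 2075, 2076 and 2065 in shARID1B.3, and 835, 755 and 773 in shARID1A/B.2.3 and 1108, 1206 and 1082 in shARID1A/B.4.2. PRIM1, the catalytic primase subunit, was below every Control library in 5 conditions and above every Control library in shARID1B.3, where its log2 fold change of 0.48 (SE 0.047, adjusted p = 3.16e-09) was the largest rise of any member in that condition. Exons of PRIM1 overlap those of NACA on the same strand, so its reads could include some of that gene. PRIM2 ranged from 1008 to 1105 in the Control libraries, 804 to 901 in shARID1A.2 and 605 to 634 in shARID1A.4. Its range was 862 to 950.4 in shARID1B.2, 1235 to 1381 in shARID1B.3, 494 to 549.8 in shARID1A/B.2.3 and 869.9 to 941 in shARID1A/B.4.2. PRIM2, the regulatory primase subunit, was likewise lowest in shARID1A/B.2.3. POLA1 ranged from 2940.5 to 3001 in the Control libraries, 1829 to 1977 in shARID1A.2 and 2250.1 to 2353 in shARID1A.4. Its range was 2352 to 2386 in shARID1B.2, 3404 to 3538 in shARID1B.3, 1716 to 1833 in shARID1A/B.2.3 and 1598 to 1685 in shARID1A/B.4.2. In shARID1B.3 the log2 fold change was 0.31 for PRIM2 and 0.23 for POLA1, while POLA2 was at 0.09 (adjusted p = 0.0842). POLA2 in turn had the lowest value of the subgroup, -1.42 in shARID1A/B.2.3.

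Polymerase delta, which extends the lagging strand, was uneven. POLD2 ranged from 4124 to 4268 in the Control libraries, 3813 to 3892 in shARID1A.2 and 4424 to 4571 in shARID1A.4. Its range was 2884 to 2905 in shARID1B.2, 4650.0 to 4848 in shARID1B.3, 4015 to 4288 in shARID1A/B.2.3 and 4084 to 4346 in shARID1A/B.4.2. POLD2, an accessory subunit, fell clearly in shARID1B.2 alone (-0.54, SE 0.027). It rose in shARID1B.3 (0.17) and slightly in shARID1A.4 (0.09), and its values overlapped Control in both conditions labelled shARID1A/B. Its small fall in shARID1A.2 (-0.13) became positive and lost its call when scaled to total reads or the upper quartile. POLD3 ranged from 1865 to 2023 in the Control libraries, 1196 to 1274 in shARID1A.2 and 1485 to 1495 in shARID1A.4. Its range was 1323 to 1362 in shARID1B.2, 2296 to 2490.3 in shARID1B.3, 1105 to 1165 in shARID1A/B.2.3 and 1452 to 1503 in shARID1A/B.4.2. POLD3 fell in 5 conditions and rose in shARID1B.3 (0.30). POLD1, the catalytic subunit, fell in 5 conditions from -1.06 in shARID1A/B.2.3 to -0.19 in shARID1B.2.

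PCNA, the ring that tethers polymerases to DNA, fell in all 6 conditions. PCNA was deposited at 10524, 10442 and 10212 in the Control libraries, 2662, 2718 and 2638 in shARID1A.2 and 4282, 4407 and 4535 in shARID1A.4. It was 4159, 4221 and 4172 in shARID1B.2 and 9074, 9225 and 9130.5 in shARID1B.3, and 4349.9, 4093 and 4034 in shARID1A/B.2.3 and 4351, 4356 and 4416 in shARID1A/B.4.2. Its value in shARID1A.2 was far below that of every other condition, and shARID1B.2 overlapped shARID1A/B.2.3. The log2 fold changes were -1.96, -1.24, -1.31, -0.18, -1.32 and -1.25 (SE 0.026). Among the RFC subunits, which load that ring, RFC3 fell furthest. RFC3 was deposited at 3428, 3145 and 3178 in the Control libraries, 1324, 1323 and 1297 in shARID1A.2 and 834, 888 and 820.3 in shARID1A.4. It was 2091, 2049 and 2169 in shARID1B.2 and 2748, 2701 and 2754 in shARID1B.3, and 668, 712 and 624 in shARID1A/B.2.3 and 1171, 1258 and 1141 in shARID1A/B.4.2. RFC3 was lowest in shARID1A/B.2.3, at -2.28, then in shARID1A.4 at -1.94 (SE 0.045). RFC2 ranged from 1837 to 2000.2 in the Control libraries, 1212 to 1286 in shARID1A.2 and 1173 to 1203 in shARID1A.4. Its range was 1298 to 1395 in shARID1B.2, 1768 to 1827 in shARID1B.3, 1172 to 1254 in shARID1A/B.2.3 and 1553 to 1641 in shARID1A/B.4.2. RFC2 had the smallest mean fall of the subgroup, with -0.63, -0.70, -0.53, -0.10, -0.68 and -0.28 (SE 0.037), and RFC1, RFC4 and RFC5 fell to at most -0.77, -1.04 and -1.09.

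FEN1, the flap nuclease that trims lagging-strand fragments, and LIG1, the ligase that joins them, differed from each other. FEN1 fell in all 6 conditions, from -1.75 in shARID1A.2 to -0.10 in shARID1B.3, and its exons overlap those of FADS2 on the same strand. LIG1 fell in the 4 conditions labelled shARID1A or shARID1A/B, to -1.61 in shARID1A/B.2.3, and was at -0.05 in shARID1B.2 (adjusted p = 0.337) and 0.07 in shARID1B.3 (adjusted p = 0.179).

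The 3 subunits of RPA, which coats single-stranded DNA, had the smallest median fall of all subgroups in shARID1A.2, shARID1A.4, shARID1B.2 and shARID1A/B.2.3. In shARID1B.2 their median was -0.018 ± 0.032. The 3 subunits did not move together. RPA1 ranged from 3636 to 3782 in the Control libraries, 1801 to 1884 in shARID1A.2 and 2802 to 2949 in shARID1A.4. Its range was 3206 to 3307 in shARID1B.2, 3583 to 3748 in shARID1B.3, 2609 to 2785 in shARID1A/B.2.3 and 1457 to 1485 in shARID1A/B.4.2. RPA1, the largest subunit, fell most in shARID1A/B.4.2 (-1.32) and shARID1A.2 (-0.99, SE 0.029). RPA2 ranged from 1402 to 1466 in the Control libraries, 1200.5 to 1275 in shARID1A.2 and 1087 to 1199.9 in shARID1A.4. Its range was 1542 to 1719 in shARID1B.2, 1453 to 1536 in shARID1B.3, 900.3 to 987 in shARID1A/B.2.3 and 1148 to 1279 in shARID1A/B.4.2. RPA2 was the subunit nearest to Control in shARID1A.2, shARID1A.4 and shARID1A/B.4.2. RPA3 ranged from 1372 to 1473 in the Control libraries, 1180.4 to 1231 in shARID1A.2 and 925 to 987 in shARID1A.4. Its range was 1369.9 to 1432 in shARID1B.2, 1677 to 1798 in shARID1B.3, 621 to 689.5 in shARID1A/B.2.3 and 981 to 997 in shARID1A/B.4.2. RPA2 and RPA3 fell most in shARID1A/B.2.3 instead, at -0.58 and -1.13. RPA2 rose in shARID1B.2 (0.18, SE 0.048) and RPA3 in shARID1B.3 (0.30, SE 0.041).

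In deoxynucleotide supply, TYMS had the deepest mean fall of all 53 genes, at -1.55 over the 6 conditions. TYMS encodes thymidylate synthase, which makes the thymine nucleotide. TYMS was deposited at 3409.7, 3410.4 and 3359.5 in the Control libraries, 851, 839 and 874 in shARID1A.2 and 699, 679 and 715 in shARID1A.4. It was 2031, 2106 and 2043 in shARID1B.2 and 2751, 2776 and 2858 in shARID1B.3, and 751, 705 and 668 in shARID1A/B.2.3 and 1067, 1036 and 938 in shARID1A/B.4.2. The values in shARID1A.4 and shARID1A/B.2.3 were the lowest and overlapped each other. The log2 fold changes were -1.99, -2.28, -0.72, -0.28, -2.26 and -1.74 (SE 0.042), and the adjusted p in shARID1A.4 was 9.43e-24. Exons of TYMS overlap those of ENOSF1 on the other strand.

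RRM2 and RRM1, the small and large subunits of ribonucleotide reductase, moved in different libraries. RRM2 was deposited at 11707, 11715 and 11618 in the Control libraries, 4402, 4447 and 4318 in shARID1A.2 and 7824, 7946 and 8062 in shARID1A.4. It was 5239, 5207 and 5237 in shARID1B.2 and 11842, 11788 and 12008 in shARID1B.3, and 8096, 7394 and 7603 in shARID1A/B.2.3 and 6842, 7342 and 7058 in shARID1A/B.4.2. RRM2 was lowest in shARID1A.2 (-1.41) and shARID1B.2 (-1.16), and was at 0.02 in shARID1B.3 (SE 0.027, adjusted p = 0.447). RRM1 was lowest in shARID1A.4 (-1.58) and fell in shARID1B.3 as well, to -0.83 (SE 0.027), further than in shARID1B.2 (-0.58). TK1, the salvage kinase for thymidine, fell in all 6 conditions, from -1.53 to -0.13.

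**Figure D3:**
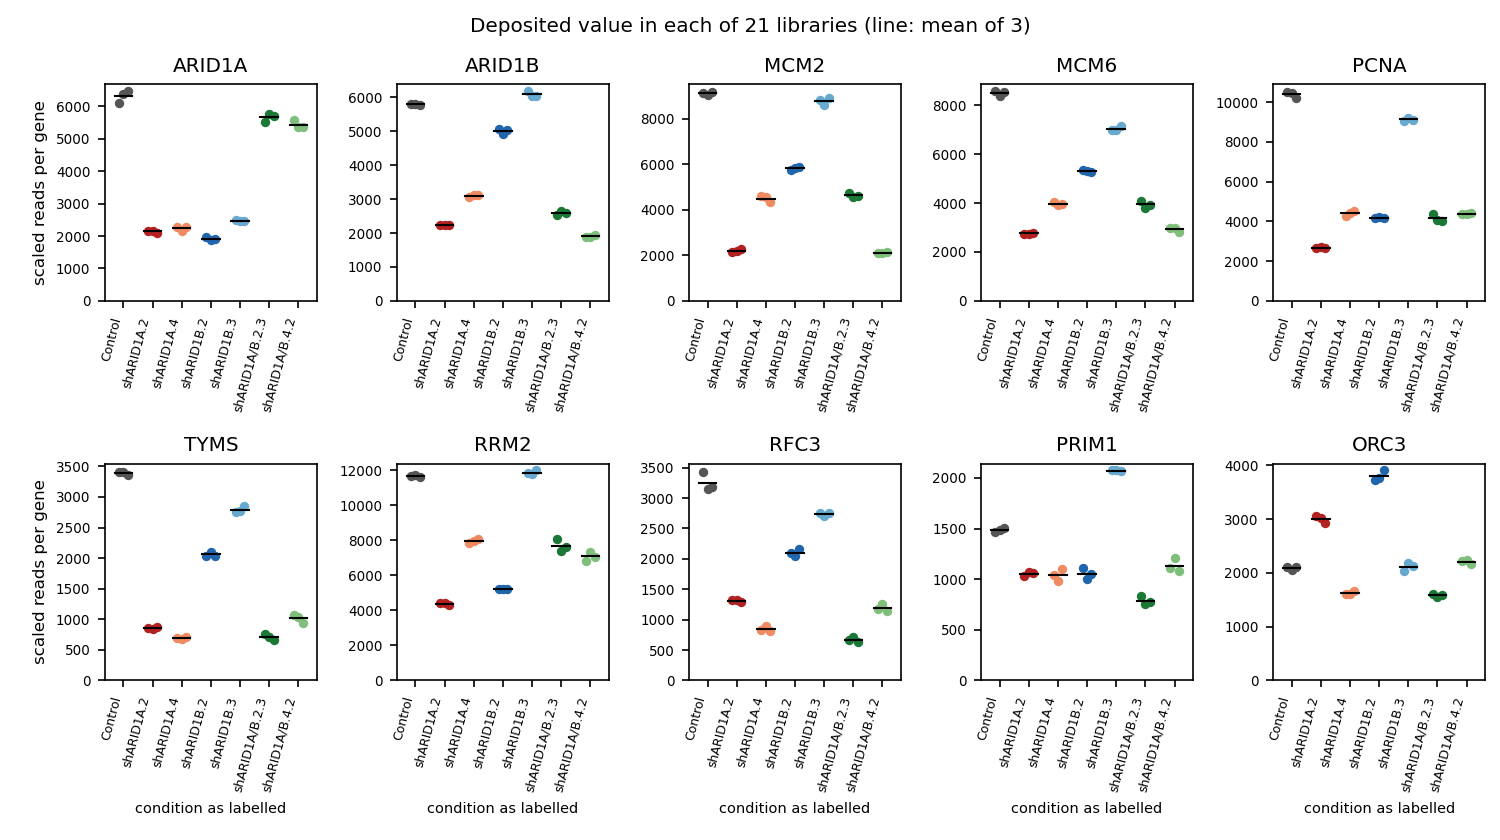
Deposited value in scaled reads per gene (vertical axis, from 0) in each of the 21 libraries (points, 3 per condition, with the mean as a line) for both target genes and 8 members, by condition as labelled (horizontal axis). MCM2, MCM6, PCNA, TYMS, RRM2 and RFC3 are well below Control in the 5 conditions other than shARID1B.3, PRIM1 is highest in shARID1B.3 and ORC3 is highest in shARID1B.2.

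Fork protection genes fell steeply in shARID1A.2. TIMELESS and TIPIN form a complex that keeps helicase and polymerase together, and CLSPN (claspin) carries the checkpoint signal from a stalled fork. TIMELESS ranged from 5134 to 5259 in the Control libraries, 1471 to 1513 in shARID1A.2 and 3207 to 3275 in shARID1A.4. Its range was 3622 to 3818 in shARID1B.2, 5572 to 5763 in shARID1B.3, 2616 to 2689 in shARID1A/B.2.3 and 1709 to 1848 in shARID1A/B.4.2. TIMELESS rose in shARID1B.3 (0.13, SE 0.028) and fell elsewhere, to -1.80 in shARID1A.2 and -1.56 in shARID1A/B.4.2. TIPIN ranged from 807 to 875 in the Control libraries, 284 to 338 in shARID1A.2 and 546 to 569.8 in shARID1A.4. Its range was 320.1 to 342 in shARID1B.2, 825 to 861 in shARID1B.3, 453 to 454 in shARID1A/B.2.3 and 582 to 600.4 in shARID1A/B.4.2. TIPIN did not share the order of its partner, with its lowest values in shARID1A.2 (-1.46) and shARID1B.2 (-1.35), and it overlapped Control in shARID1B.3. CLSPN reached -2.15 in shARID1A.2, the lowest value of any member there.

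WDHD1, which links polymerase alpha to the helicase, was the clearest exception to the mild pattern of shARID1B.3, followed by RRM1 and MCM10. WDHD1 ranged from 3156 to 3295 in the Control libraries, 1208 to 1363 in shARID1A.2 and 788 to 895 in shARID1A.4. Its range was 1925 to 1961 in shARID1B.2, 1322 to 1415 in shARID1B.3, 1532 to 1705 in shARID1A/B.2.3 and 1632 to 1652 in shARID1A/B.4.2. Its log2 fold change of -1.25 (SE 0.046, adjusted p = 2.13e-17) was the only fall of a member by at least 1 in that condition, and lay below its own value in shARID1B.2 (-0.72), shARID1A/B.2.3 (-1.01) and shARID1A/B.4.2 (-0.97). CHAF1A and CHAF1B, subunits of the histone chaperone CAF-1, both fell in the 5 conditions other than shARID1B.3. CHAF1A ranged from 3876 to 3944 in the Control libraries, 1902 to 1965 in shARID1A.2 and 1692 to 1803 in shARID1A.4. Its range was 2601 to 2644 in shARID1B.2, 3392 to 3577 in shARID1B.3, 1662 to 1705 in shARID1A/B.2.3 and 2253 to 2482 in shARID1A/B.4.2. CHAF1A, the largest subunit, was lowest in shARID1A/B.2.3. CHAF1B ranged from 1256 to 1320.2 in the Control libraries, 779.7 to 817 in shARID1A.2 and 708 to 847 in shARID1A.4. Its range was 889 to 1006 in shARID1B.2, 1193 to 1235 in shARID1B.3, 704 to 721 in shARID1A/B.2.3 and 966 to 1037 in shARID1A/B.4.2. CHAF1A was lower in all 6 conditions and CHAF1B in 5, with an adjusted p of 0.13 in shARID1B.3.

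The members differed widely in level before silencing. In Control, as scaled reads per kilobase of annotated exon (mean ± SD, n = 3), PCNA was at 7065 ± 110, MCM7 at 4191 ± 22.3, MCM3 at 3922 ± 9.79, FEN1 at 3188 ± 51.3, RRM1 at 2452 ± 38.4 and RRM2 at 2194 ± 10.1. The other ring subunits followed with MCM6 at 2062 ± 27.7, MCM2 at 1858 ± 13.9, MCM4 at 1718 ± 22.4 and MCM5 at 886 ± 8.89, and no neighbours among these 6 subunits overlapped within their SD. At the lower end, ORC1, CHAF1B and ORC4 lay at 254 ± 2.7, 253 ± 6.74 and 251 ± 4.31 and did not differ beyond their spread. PRIM2 (225 ± 10.7), LIG1 (219 ± 11.8) and GINS3 (198 ± 10.9) were lowest, and PRIM2 and LIG1 did not differ beyond their spread. These levels use all annotated exons of a gene as its length, so a gene with a long, little used exon reads low. In GENCODE release 29 (GRCh38), the genes the comparison turns on lie at chr3:127598223-127622436 (MCM2), chr2:135839626-135876426 (MCM6), chr20:5114953-5126626 (PCNA), chr13:33818049-33966558 (RFC3), chr18:657604-673578 (TYMS), chr2:10120698-10131419 (RRM2), chr12:56731596-56752373 (PRIM1), chr14:54938950-55027105 (WDHD1) and chr6:87590067-87667453 (ORC3), and all values are per gene, not per exon or transcript.

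The conditions that share a label differed for most members. Between shARID1A.2 and shARID1A.4, 17 members were lower and 24 higher in shARID1A.2, against 37.3% and 38.4% of all genes, with a median difference of 0.05 (all genes 0.03). TIMELESS (-1.11), MCM2 (-1.03) and RRM2 (-0.86) were lower in shARID1A.2, and GINS2 (1.01), ORC3 (0.89) and RRM1 (0.77) were higher. Between shARID1A/B.2.3 and shARID1A/B.4.2, 38 members were lower and 11 higher in shARID1A/B.2.3, against 37.8% and 37.1%, with a median difference of -0.38. GINS2 (-0.98) had the largest difference in that direction and MCM2 (1.13) the largest in the other. Between shARID1B.2 and shARID1B.3, 43 members were lower and 8 higher in shARID1B.2, against 33.0% and 33.0%, with a median of -0.42. TIPIN (-1.35), RRM2 (-1.18), POLE2 (-1.16) and PCNA (-1.13) were lower there, and ORC3 (0.85) and WDHD1 (0.52) higher.

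Opposite calls against Control within a label were frequent among the members in shARID1B alone. There 12 members (22.6%) were called lower in shARID1B.2 and higher in shARID1B.3, against 7.88% of all genes, and 0 the other way, against 6.60%. Within shARID1A, 2 members were lower in shARID1A.2 and higher in shARID1A.4, against 9.78%, and 1 was the other way, against 7.37%. Within shARID1A/B, 1 was lower in shARID1A/B.2.3 and higher in shARID1A/B.4.2, against 7.94%, and 1 was the other way, against 10.6%, so that the counts in these 2 labels were not above those of all genes.

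The difference of shARID1A.2 from shARID1A.4 resembled that of shARID1A/B.4.2 from shARID1A/B.2.3. These contrasts share no library. Across the 53 members, which share the libraries within each contrast and are not independent replicates, Pearson's r was 0.73 and Spearman's rho 0.72, and 37 members (69.8%) differed in the same direction. Over all 18584 genes, r was 0.79 and 80.7% shared the direction, so the likeness was not particular to replication genes. MCM2, RPA1, TIMELESS and CLSPN were lower in shARID1A.2 and shARID1A/B.4.2 than in their counterparts, and GINS2, CDT1, RFC3 and ORC3 were higher. The difference of shARID1B.2 from shARID1B.3 had an r of 0.61 with the first contrast over the members (0.47 over all genes) and of 0.08 with the second (0.13 over all genes). It shared the direction of the first contrast for 47.2% of members, against 66.5% of all genes. With the second contrast the shares were 28.3% and 54.3%, so the directions of the members agreed less than those of all genes.

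**Figure D4:**
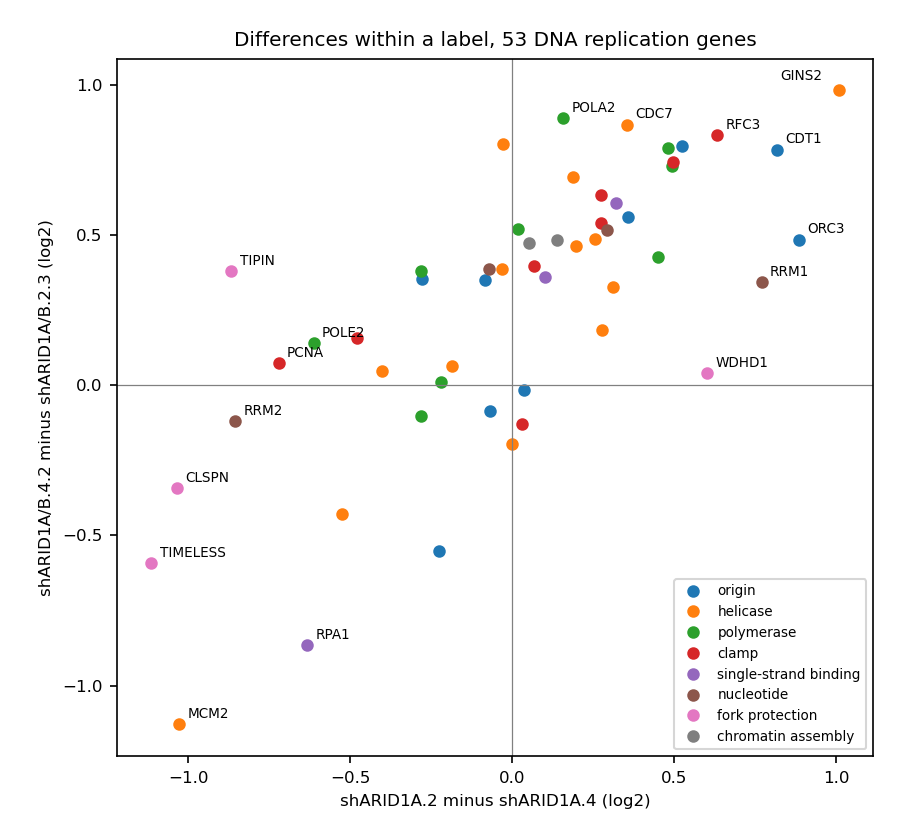
Log2 difference of shARID1A.2 from shARID1A.4 (horizontal axis) and of shARID1A/B.4.2 from shARID1A/B.2.3 (vertical axis) for the 53 genes, coloured by subgroup. GINS2, CDT1, RFC3 and ORC3 lie at the upper right and MCM2, RPA1 and TIMELESS at the lower left, while TIPIN, PCNA and POLE2 were lower in shARID1A.2 without being lower in shARID1A/B.4.2.

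Averaged over the conditions of a label, the libraries labelled shARID1A were lower than those labelled shARID1B for 50 members and higher for 3 (ORC2, ORC5 and POLD2), against 32.8% and 34.6% of all genes, with a median difference of -0.61. The libraries labelled shARID1A/B were lower than those labelled shARID1B for 48 and higher for 3, against 35.0% and 35.1%, with a median of -0.57. TYMS had the largest difference in both, at -1.63 and -1.50. These contrasts share the shARID1B libraries. When the spread between the conditions of a label was counted as error, by fitting 4 labelled groups, 43 members differed between shARID1A and shARID1B (42 lower and 1 higher in shARID1A), against 21.4% of all genes. In that fit 41 differed between shARID1A/B and shARID1B (40 lower and 1 higher in shARID1A/B), against 27.9%. The fit still treats all libraries of a label as independent, although each label holds only 2 shRNAs or combinations. Its calls may therefore be too many.

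Between the libraries labelled shARID1A, where both targets were low, and those labelled shARID1A/B, where ARID1B was low, the members differed by little. There 23 members were lower and 14 higher in shARID1A, against 28.7% and 30.5%, and the median difference was -0.03 (all genes 0.02). The differences ran from -0.63 for WDHD1 to 0.42 for RPA3. With 4 labelled groups, 3 members were called here, a share of 5.66% against 9.31% of all genes.

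Other genes of the pathway, 60 in 4 lists, fell less uniformly. In shARID1A.2, 51 fell and 6 rose (median -0.60), in shARID1A.4 41 and 12 (-0.75), in shARID1A/B.2.3 44 and 9 (-0.53) and in shARID1A/B.4.2 49 and 7 (-0.40). In shARID1B.2 the counts were 49 and 5 (-0.37) and in shARID1B.3 27 and 18 (-0.04). Of all genes tested, 32.0% to 38.2% fell and 31.6% to 37.9% rose over the 6 conditions, with 32.0% and 31.9% in shARID1B.3. The 18 rises in shARID1B.3 were thus no more frequent than among all genes. The 18 replisome and lagging-strand genes behaved like the members, with 15 lower in each condition labelled shARID1A or shARID1A/B. POLD4, the smallest subunit of polymerase delta, was their widest exception, at 1.34 in shARID1A.2, 0.92 in shARID1B.2 and 0.63 in shARID1A/B.4.2 but -0.85 in shARID1A.4 (SE 0.08). All 7 histone chaperone genes fell in the 4 conditions labelled shARID1A or shARID1A/B, and so did 8 to 10 of the 11 firing and loading factors.

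The 24 wider genes of nucleotide supply were mostly lower in 3 conditions, which were shARID1A.2 (21 lower, 3 higher), shARID1B.2 (21 and 3) and shARID1A/B.4.2 (19 and 4). Their counts were 10 and 8 (41.7% and 33.3%) in shARID1A.4, against 36.6% and 37.0% of all genes, and 10 and 8 in shARID1B.3, against 32.0% and 31.9%. In shARID1A/B.2.3 they were 12 and 7, against 34.0% and 35.2%, so that the shares of these 3 conditions lay nearer to those of all genes. DUT, which removes dUTP, was at -0.75, -2.02, -0.18, -0.41, -1.91 and -0.74 (SE 0.042). RRM2B, the alternative small subunit of ribonucleotide reductase, did not follow the order of the members, with -0.58, -1.85, -1.26, -2.21, -0.72 and 0.28 (SE 0.089), the deepest fall being in shARID1B.3.

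Genes of other cell cycle phases moved with the members. Of 12 genes of G2 and mitosis, all 12 fell in the 4 conditions labelled shARID1A or shARID1A/B, with medians of -1.01 in shARID1A.2, -1.07 in shARID1A.4, -1.17 in shARID1A/B.2.3 and -0.65 in shARID1A/B.4.2. In shARID1B.2, 11 of them fell (median -0.53), and in shARID1B.3, 6 fell and 0 rose (median -0.09). These medians lie close to those of the members in each condition. Of 9 E2F and MYB regulators, 8 or 9 fell in each condition other than shARID1B.3, where 3 fell and 2 rose. Of 8 G1 cyclin and kinase genes 7 passed the filter, and 4 to 6 of them fell in every condition while 0 to 2 rose. The shares of all genes tested were 32.0% to 38.2% lower and 31.6% to 37.9% higher over the 6 conditions. Whether the change in the members is separate from this general change of cell cycle genes was not tested.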

How the data were processed

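Polyadenylated RNA of 21 SK-N-BE(2) libraries was sequenced. Per the labels, the authors' processing named STAR 2.5.3a, RSEM 1.3.0, DESeq2 1.26.0 and GRCh38. The authors deposited a signal per gene, which is a read count divided by 1 size factor per library (0.841 to 1.29). Whole reads were recovered for 100% of values within 0.02 read. RSEM estimates counts, so these may be rounded estimates. Tables of the authors' own comparisons, with fold changes and p-values, were not used. Whether counting used strand is not given in the sources used here, so members with overlapping genes are uncertain. Exons of 8 members overlap another gene on the same strand and those of 19 on the other, and 9 members have pseudogenes named after them.

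The design named limma with a trend (limma 3.58.1, R 4.3.3) on log2(value + 1) over 18584 genes and all 21 libraries, two-sided with Benjamini-Hochberg adjustment. Genes were filtered on recovered reads by edgeR 4.0.16. edgeR's quasi-likelihood test and DESeq2 1.42.0 on those reads were alternatives, as were other pseudocounts, filters and scalings, the replicate number as a block and each library left out. In shARID1A.2 against Control, edgeR called 6928 genes lower and 7260 higher, and limma 7094 and 7048. In simulated reads for shARID1A.2 against Control over 18584 genes, limma found 199 of 200 changed genes with 27 false calls. Far fewer genes were changed there than were called in the data, so the simulation does not check the calls or the scaling in that setting. Replicate libraries differed by more than sampling noise in all 21 pairs (chi-square per degree of freedom 1.55 to 4.26).

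The members and lists were chosen with earlier results of these data known. Genes named are both targets, MCM2 to MCM7, PCNA, RRM2, the members with the lowest and highest mean fold change of each subgroup, members called higher in any condition, and members called in opposite directions within a label. Other members, and single genes of the wider pathway lists, were named after their values were seen. Gene models are from GENCODE release 29 (GRCh38), matched by identifier without version, and promoters from RefSeq. Figures used Python 3.11.15 with matplotlib 3.10.9.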

Additional observations from a re-analysis of the deposited data

Results flagged for a closer look

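Members were singled out where the conditions of 1 label were called in opposite directions against Control and the direct difference passed limma's test at an adjusted p of 0.05. Within shARID1A (shARID1A.2 minus shARID1A.4), these were ORC2 at -0.23, ORC3 at 0.89 and POLD2 at -0.22 on the log2 scale, each with every library of a condition on 1 side of the other. The opposite calls of ORC2 and POLD2 there depended on the scaling: in shARID1A.2, scaled to total reads or the upper quartile, ORC2 was called higher than Control (0.076 and 0.086) and POLD2 was positive without a call (0.044 and 0.055). Within shARID1A/B (shARID1A/B.2.3 minus shARID1A/B.4.2), they were ORC2 at 0.55 and ORC3 at -0.49, where the rise of ORC3 in shARID1A/B.4.2 lost its call without Control replicate 2 or without shARID1A/B.4.2 replicate 2 (adjusted p = 0.0648 and 0.0644). These counts, 3 and 2 of 53 members, were not above the share of all genes with such opposite calls.

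Within shARID1B (shARID1B.2 minus shARID1B.3), 12 members (22.6%) fell in shARID1B.2 and rose in shARID1B.3, against 7.88% of all genes. The licensing factors CDT1 and GMNN differed by -0.48 and -0.62, the helicase genes MCM7, CDC7 and DBF4 by -0.49, -0.93 and -0.68, and TIMELESS by -0.61. In the polymerase subgroup POLA1 differed by -0.55, PRIM1 by -0.98, PRIM2 by -0.53, POLD2 by -0.71, POLD3 by -0.82 and POLE2 by -1.16. Under both other scalings the fall of CDT1 and of PRIM2 in shARID1B.2 lost its call, and the rise of GMNN in shARID1B.3 lost its call without any 1 of 5 libraries. The targets differed as well: ARID1A was lower in shARID1B.2 than in shARID1B.3 by a log2 difference of -0.37 and ARID1B by -0.28, and ARID1B was called lower than Control in shARID1B.2 (-0.21) and higher in shARID1B.3 (0.07). Their part in these differences was not tested.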

How the results depend on the processing

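The counts of members lower in each condition, higher in at least 1 condition and differing between conditions or labels kept within 1.5 times of their values under DESeq2, edgeR with TMM, pseudocounts of 0.5 and 5, both filters, both other scalings and fits on only the libraries compared. Small counts in 1 direction did not: with total reads and the upper quartile, the members higher in shARID1A.2 went from 1 to 3 and 3, those higher in shARID1A/B.4.2 from 1 to 4 and 4, and those higher in shARID1A/B.2.3 than in shARID1A/B.4.2 from 11 to 6 and 7. With the upper quartile, those higher in shARID1B.3 went from 13 to 20, and without the filter those higher in shARID1B.2 than in shARID1B.3 went from 8 to 5. Without Control replicate 2, the members higher in shARID1A/B.2.3 went from 2 to 1 and in shARID1A/B.4.2 from 1 to 0. The first count was also 1 without shARID1A/B.2.3 replicate 1 and the second 0 without shARID1A/B.4.2 replicate 2, and without shARID1B.3 replicate 1 those higher in shARID1B.2 than in shARID1B.3 went to 5. A call that also required a log2 fold change of 1 in size left 23 members lower in shARID1A.2, 26 in shARID1A.4, 4 in shARID1B.2, 1 in shARID1B.3, 29 in shARID1A/B.2.3 and 16 in shARID1A/B.4.2, and 0 higher in any condition. It left 4, 5 and 1 members that differed within shARID1A, shARID1B and shARID1A/B, and 7, 0 and 8 between shARID1A and shARID1B, shARID1A and shARID1A/B, and shARID1A/B and shARID1B. With 4 labelled groups, 3 members differed between shARID1A and shARID1A/B. Leaving out each library in turn gave 51 to 51 members lower in shARID1A.2, 49 to 50 in shARID1A.4, 45 to 47 in shARID1B.2, 22 to 25 in shARID1B.3, 50 to 50 in shARID1A/B.2.3 and 49 to 49 in shARID1A/B.4.2, 16 to 19 higher in at least 1 condition, 41 to 42, 46 to 51 and 46 to 48 differing within the 3 labels, and 53 to 53, 34 to 37 and 51 to 51 between them. With the replicate block the counts lower were 51, 50, 47, 25, 50 and 49, while 17 rose in at least 1 condition, 41, 51 and 49 differed within the labels and 53, 36 and 51 between them, and no count changed by over 1.5 times. The numbers did not pair the libraries: correlations of same-numbered deviations ran from -0.088 to 0.053 over 63 pairs, and 6 of 21 libraries were closest to their own number.

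Scaling to total reads or to the upper quartile moved the median of all genes to between 0.04 and 0.20 against Control, so falls under those scalings read smaller. It reversed ORC2 (0.076 and 0.086 in shARID1A.2, 0.04 and 0.022 in shARID1B.2), GINS3 (0.012 and 0.022) and POLD2 (0.044 and 0.055) in shARID1A.2, and, for total reads, ORC5 in shARID1B.2 (0.017). Of 3876 values of named genes under alternatives, 9 reversed, 191 lost and 21 gained a call, 142 of the losses by the size requirement. With 3 libraries a condition, small differences such as those of ORC4 and ORC5 rest on few values.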
